A study of Mus musculus with 40 samples.

Results

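The 43 genes described here make and carry out DNA replication in S phase: the replicative helicase, the factors that license and fire origins, the sliding clamp and its loaders, the DNA polymerases, the enzymes that finish lagging strands, the suppliers of deoxynucleotides, and Clspn, Chek1 and Slbp. They were chosen by name from 30365 gene symbols, and a gene entered a comparison where its level reached 1 FPKM (fragments per kilobase of transcript and 1e6 reads) in at least 4 of 8 libraries of a first cohort or 3 of 6 libraries of a H2B-GFP cohort. All 43 symbols were present in all 6 tables. 42 passed in the haematopoietic stem cells (HSCs) and in the multipotent progenitors (MPPs) of the first cohort, where Fen1 did not, and 43 passed in each of the 4 H2B-GFP populations. No member passed through the libraries of 1 group only.

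The study asked how losing HIRA, a chaperone that deposits the histone variant H3.3, alters gene expression in the stem and progenitor cells of mouse bone marrow. All mice were adult C57BL/6 animals given poly(I:C), 2 doses of 20 µg, an RNA mimic that induces interferon and switches on the interferon-responsive Mx1-Cre transgene. KO mice were Mx1-Cre; Hira fl/fl, and the label of the control mice reads WT, with no alleles named. The first cohort was taken 1 week into treatment, counted from the first injection. It gave 4 WT and 4 KO libraries of HSCs and as many of MPPs, each from 2500 sorted cells. In the H2B-GFP cohort the mice also carried Rosa26-M2rtTA and TetOP-H2B-GFP. These mice drank 2 mg/ml doxycycline with 10 mg/ml sucrose for 6 weeks, which loads chromatin with a fluorescent histone that is then diluted by cell division, and were taken after a 17-day chase. The last injection of poly(I:C) preceded this by 15 days. Their HSCs and MPPs were each sorted into GFP-high cells, which kept the label and divided less, and GFP-low cells, which divided more, with 3 WT and 3 KO libraries in each of the 4 populations. Mx1-Cre acts in many interferon-responsive cells besides blood stem cells, so the deletion is not limited to the sorted cells. The labels call the replicates biological. Pooling of animals and sort gates are not given in the sources used here.

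As background, a cell licenses its origins in G1, when the origin recognition complex with Cdc6 and Cdt1 loads the Mcm2-7 ring onto DNA, and geminin (Gmnn) blocks Cdt1 after that. In S phase the ring is joined by GINS and Cdc45 to form the working helicase, Mcm10 helps it start, primase with polymerase alpha lays down primers, and polymerases delta and epsilon copy the strands on the Pcna clamp that replication factor C loads. Most of these genes are transcribed under E2F factors as a cell leaves quiescence. In bone marrow most HSCs are quiescent, so the RNA of these genes is a common reading of how many cells in a sorted population are cycling.

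Promoters of the members carry the letters that E2F factors read more often than promoters at large. RefSeq promoters (GRCm38.p6, 250 bases before to 50 after each start) were at hand for 34 of the members, 39 promoters in all. Any of TTTCCCGC, TTTGGCGC, TTTCGCGC and TTTGCCGC, on either strand, was present in 14 of 34 member genes (41.2%) and in 2.60% of 27025 genes. The CCAAT box, bound by NF-Y and read on both strands, was present in 21 of 34 members (61.8%) and 41.1% of all genes. The letters TTTGAA, the core of the cell cycle homology region of mitotic promoters, were present in 4 of 34 members (11.8%) and 20.2% of all genes. A match is a description of letters and no evidence of binding. The set of all genes was not matched to the members by level or base composition. The 4 windows below lie upstream of the gene and outside all annotated exons. Mcm5 and Mcm6 are shown because their E2F forms overlap each other on opposite strands, Mcm3 because it holds the CCAAT box 3 times and its E2F forms lie after the start, and Rrm2, which gave the largest difference in MPPs below, because its window holds a CCAAT box and none of the E2F forms. Capitals mark these E2F forms and CCAAT or its reverse complement ATTGG, read 5′ to 3′ on the gene's strand.

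Mcm5, chr8:75109259-75109467, plus strand: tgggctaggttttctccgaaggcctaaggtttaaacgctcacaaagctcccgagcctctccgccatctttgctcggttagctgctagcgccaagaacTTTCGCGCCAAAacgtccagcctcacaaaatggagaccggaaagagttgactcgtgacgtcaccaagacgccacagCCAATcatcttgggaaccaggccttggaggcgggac
Mcm6, chr1:128359706-128359955, minus strand: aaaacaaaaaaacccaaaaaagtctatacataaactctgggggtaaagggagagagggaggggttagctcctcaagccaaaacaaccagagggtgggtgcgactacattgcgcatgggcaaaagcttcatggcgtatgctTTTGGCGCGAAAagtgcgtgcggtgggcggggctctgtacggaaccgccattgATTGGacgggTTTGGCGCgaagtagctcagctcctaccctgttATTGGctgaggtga
Mcm3, chr1:20820313-20820562, minus strand: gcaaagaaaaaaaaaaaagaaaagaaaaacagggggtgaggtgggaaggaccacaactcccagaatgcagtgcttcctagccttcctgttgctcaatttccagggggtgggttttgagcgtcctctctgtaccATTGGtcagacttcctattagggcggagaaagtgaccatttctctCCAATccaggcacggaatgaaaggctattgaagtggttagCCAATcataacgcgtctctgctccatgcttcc
Rrm2, chr12:24708004-24708240, plus strand: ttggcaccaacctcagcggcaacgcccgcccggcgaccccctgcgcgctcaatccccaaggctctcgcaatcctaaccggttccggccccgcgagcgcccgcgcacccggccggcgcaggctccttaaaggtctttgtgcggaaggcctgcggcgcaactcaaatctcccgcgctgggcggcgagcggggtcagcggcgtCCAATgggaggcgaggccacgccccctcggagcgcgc

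Reads assigned to genes, as recovered from the FPKM values, came to 15.9 to 29.1 M (1e6 reads) a library in the first cohort and 5.82 to 9.47 M in the H2B-GFP cohort. The labelled cell types were checked on Flt3, a progenitor receptor, which was at 1.49 to 5.71 FPKM in HSCs and 30.8 to 60.2 FPKM in MPPs, and on Slamf1, an HSC surface marker, at 5.20 to 7.05 FPKM and 0.0754 to 0.563 FPKM. In the H2B-GFP cohort Flt3 was at 2.45 to 6.98 FPKM in HSCs and 18.7 to 47.8 FPKM in MPPs. Hira RNA does not check the KO label: KO libraries held 0.720 to 1.32 FPKM and WT libraries 0.840 to 1.64 FPKM in HSCs, the ranges overlapped in all 6 populations, and limma's adjusted p lay between 0.692 and 0.965. Reads from undeleted exons could not be separated in these tables, so groups are named below by their labels. KO replicate 3 of the H2B-GFP cohort stood apart. Its summed mature neutrophil markers (9 of 9 genes detected) reached 28997 FPKM in GFP-low HSCs against 2069 to 4813 FPKM in the other libraries there. In GFP-high MPPs they reached 24019 FPKM against 3884 to 6296 FPKM. They were not raised in its other populations. The sum was 4372 FPKM in GFP-high HSCs, against 4285 to 7319 FPKM. In GFP-low MPPs it was 3732 FPKM, below the 4578 to 9855 FPKM of the other libraries. Its ribosomal RNA rows were the lowest of the 6 libraries in each population. Medians of that cohort, and the main counts of the members, are therefore given with and without it. The difference tests leave out 1 library at a time instead.

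Replication genes first separated the populations by division history. The values in this paragraph are levels as parts per 1e6 of a library's summed FPKM, set side by side across tables that were scaled separately, and so carry no test. In WT HSCs, all 3 GFP-low libraries lay above all 3 GFP-high libraries for 39 of 43 members, against 13.6% of all genes, with a median log2 difference of 0.48. In WT MPPs this held for 32 of 43 members, against 9.46% of all genes, with a median of 0.36. Mcm6, a subunit of the helicase ring, lay at 202 to 218 in WT GFP-high HSCs and 273 to 329 in WT GFP-low HSCs. In the libraries labelled KO the members also lay higher in GFP-low cells, by a median of 0.48 in HSCs and 0.43 in MPPs. The 3 KO libraries were fully apart for 18 and 14 of 43 members, against 5.54% and 5.3% of all genes, and with ribosomal RNA rows left out of the total for 19 and 22, against 5.86% and 7.65%. Leaving out KO replicate 3, the medians were 0.59 and 0.50, and the 2 KO libraries on each side were apart for 39 and 33 members, against 20.6% and 18% of all genes. With all libraries no member was fully apart in the other direction in either genotype, against 5.92% to 10.4% of all genes. Without KO replicate 3 there was 1 in MPPs, against 24.8% of all genes.

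**Figure D1:**
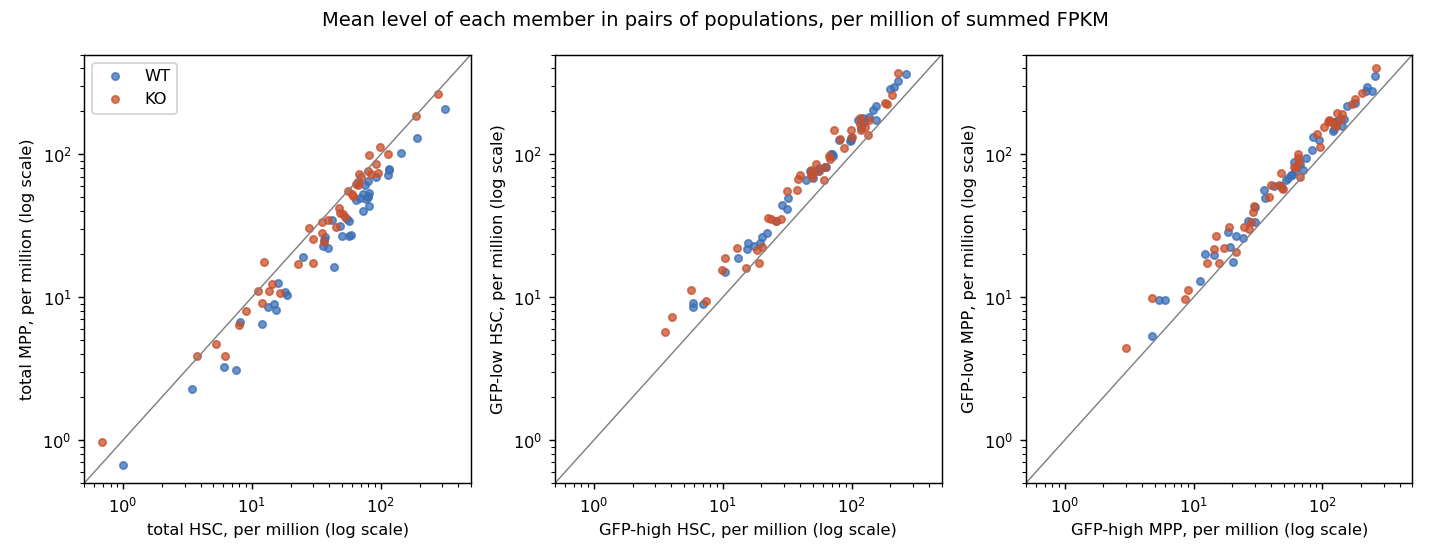
Mean level of each member (parts per 1e6 of a library's summed FPKM, log axes) in MPPs against HSCs of the first cohort and in GFP-low against GFP-high cells of the HSCs and MPPs, with WT and KO means in separate colours and the line of equal levels drawn. Nearly all members lie above the line for GFP-low cells. In the first cohort the WT means lie below it, while most KO means lie closer to it on the same side.

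In the first cohort the members leaned lower in MPPs than in HSCs in both genotypes, by less in KO. On that same scale the 4 WT MPP libraries lay below the 4 WT HSC libraries for 33 of 42 members, against 9.9% of all genes, with a median log2 difference of -0.61. On the deposited scale the count was 25, against 10.2% of all genes. In the libraries labelled KO 5 of 42 members were fully lower in MPPs, against 5.76% of all genes, and the median was -0.16. With ribosomal RNA rows left out of the total 8 were (6.61%). By group means, 6 of 42 members were higher in MPPs than in HSCs in KO, and 0 of 42 in WT. Of all 13166 genes, 6174 and 6216 were. Tk1, the salvage thymidine kinase, was at 41.2 to 46.2 in WT HSCs and 12.8 to 19.6 in WT MPPs. Rrm2, the regulated subunit of ribonucleotide reductase, was at 74.5 to 87.4 in WT HSCs, 39.9 to 70.8 in WT MPPs and 86.6 to 110 in KO MPPs. In the H2B-GFP cohort HSCs and MPPs of the same GFP class were close: the median was 0.06 in both genotypes for GFP-high cells, and -0.05 in WT and 0.04 in KO for GFP-low cells, where the sign turned on the deposited scale. With KO replicate 3 left out the KO medians were 0.08 and -0.02.

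In total MPPs of the first cohort the replication genes were on the whole higher in the KO libraries, and none passed the adjusted test. Of 42 members 39 had a positive log2 difference of KO minus WT, with a median of 0.31, against 50.4% of all genes. 0 of 42 passed limma at an adjusted p of 0.05, where 0.108% of 13916 genes did. At an unadjusted p of 0.05, 16 members were higher and 0 lower, against 8.77% of genes higher and 7.79% lower. Other fits called some: limma-voom on the recovered reads called 3 members, Rfc4, Rrm2 and Slbp (0.82% of all genes), a replicate block 4, Gmnn, Orc6, Rrm2 and Slbp (0.984%), and 1 fit over all populations of the cohort 8 (4.25%). At an unadjusted p of 0.05 these fits counted 18, 17 and 21 members, all higher, against 8.49%, 10.6% and 11.5% of all genes higher. KO libraries lay wholly above WT libraries for Mcm10, Orc6, Rfc4, Rrm2, Tk1 and Slbp, 6 members, against 5.08% of all genes. Leaving out WT replicate 2 lowered the median to 0.20 with 31 positive members, and leaving out KO replicate 4, the KO library with the least neutrophil marker RNA, gave 3 called members, against 1.5% of all genes. Without WT replicate 3, 1 was called, against 0.468%. Over all libraries left out in turn, 11 to 21 members were higher at an unadjusted p of 0.05, against 6.21% to 11.5% of all genes. In bulk libraries such as these, more or fewer cells of a type and more or less RNA per cell cannot be told apart.

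Rrm2 gave the largest of these differences (chr12:24708241-24714146, plus strand, GRCm38, identifier ENSMUSG00000020649). Its FPKM was 24.5, 28.9, 44.5 and 29.7 in the WT MPP libraries and 54.6, 64.4, 69.3 and 59.5 in those labelled KO. Every KO library exceeded every WT library, and WT replicate 3 was the highest of its group. The log2 difference was 0.97 (SE 0.17, n = 4 and 4, limma adjusted p = 0.0514).

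Slbp (chr5:33634952-33652574, minus strand), which binds the stem-loop of replication-dependent histone mRNAs and is needed for histone supply in S phase, was at 31.4, 29.9, 33.2 and 26.6 FPKM in WT MPPs and 43.4, 48.0, 53.8 and 46.4 FPKM in KO MPPs. The groups did not overlap, and the log2 difference was 0.65 (SE 0.11, limma adjusted p = 0.0514). Rfc4 (chr16:23113943-23127737, minus strand), a small subunit of the clamp loader, was at 26.4, 25.1, 22.0 and 20.9 FPKM in WT and 38.4, 31.4, 46.9 and 40.9 FPKM in KO. Its groups were also apart, with KO replicate 2 nearest to WT, and the difference was 0.71 (SE 0.14, limma adjusted p = 0.0573). Rfc4 shares exon bases with Eif4a2 and Slbp with Gm10459 on the opposite strand. Whether reads were counted by strand is not given in the sources used here, so the values of these genes, and of the 14 members in all that share exon bases with another gene, are uncertain to that extent.

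**Figure D2:**
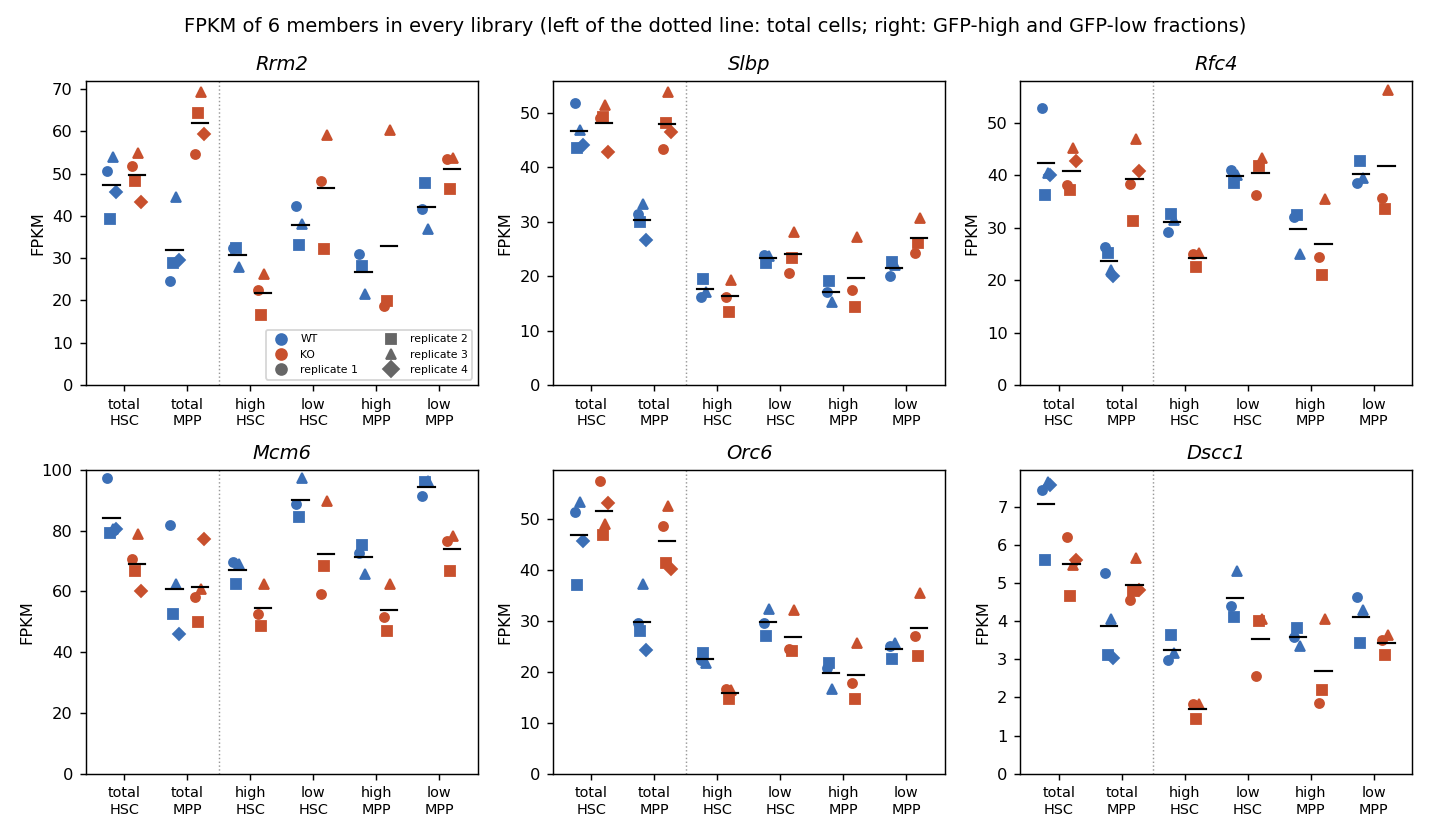
FPKM of Rrm2, Slbp, Rfc4, Mcm6, Orc6 and Dscc1 in every library of the 6 populations, WT and KO in separate colours. In total MPPs the KO points of Rrm2, Slbp, Rfc4 and Orc6 sit above all WT points, while in GFP-high HSCs the KO points of Rrm2, Rfc4, Orc6 and Dscc1 sit below them.

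The licensing genes had the same direction in MPPs, with a median of 0.53 over 5 genes. Orc6, a subunit of the origin recognition complex, was at 29.5, 28.0, 37.2 and 24.3 FPKM in WT and 48.7, 41.3, 52.6 and 40.1 FPKM in KO, with no overlap (log2 difference 0.61, limma adjusted p = 0.0952). Cdc6, the loader that brings the helicase ring to origins, was at 7.14, 4.62, 10.3 and 7.44 FPKM in WT and 9.04, 10.7, 11.3 and 12.2 FPKM in KO, where WT replicate 3 overlapped the KO libraries. Cdt1, its partner, was at 36.1, 18.3, 32.7 and 26.5 FPKM in WT and 39.9, 35.2, 31.7 and 30.7 FPKM in KO. Cdt1 overlapped between genotypes, with its lowest value in WT replicate 2. Geminin, the inhibitor of Cdt1, had a log2 difference of 0.71 (limma adjusted p = 0.114).

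The nucleotide supply genes had the highest median of the role groups in MPPs, 0.57 over 5 genes. Tyms, thymidylate synthase, was at 15.0, 14.5, 20.7 and 13.6 FPKM in WT and 22.5, 20.4, 26.8 and 24.5 FPKM in KO, with only WT replicate 3 reaching the lowest KO library (log2 difference 0.54, limma adjusted p = 0.124). Tk1 differed by 0.63 (limma adjusted p = 0.0926). The helicase subunits differed least apart from the polymerases, with medians of 0.21 and 0.15. Mcm10, the initiation factor, was low in level, at 2.17, 1.59, 2.44 and 1.54 FPKM in WT and 3.55, 2.75, 2.99 and 2.45 FPKM in KO, and its groups were just apart (log2 difference 0.43, limma adjusted p = 0.233). Mcm5, a subunit of the ring, was at 57.2, 34.1, 50.2 and 44.9 FPKM in WT and 53.2, 51.6, 58.1 and 50 FPKM in KO. Its range was wide in WT and narrow in KO, and the groups overlapped.

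Among the remaining roles in MPPs, the clamp Pcna was at 165, 110, 133 and 90.1 FPKM in WT and 173, 151, 192 and 145 FPKM in KO, so that the highest WT library lay within the KO range. Gins2, a subunit of the GINS complex, was at 6.39, 3.22, 5.50 and 4.97 FPKM in WT and 5.88, 7.10, 7.22 and 7.02 FPKM in KO. Pola1, the catalytic subunit of polymerase alpha, was at 7.50, 5.75, 5.36 and 5.66 FPKM in WT and 6.58, 5.36, 8.21 and 6.34 FPKM in KO, a full overlap. Clspn, a mediator of the replication checkpoint, was at 1.38, 1.42, 2.78 and 1.72 FPKM in WT and 2.22, 2.66, 2.87 and 1.95 FPKM in KO. Pole, the catalytic subunit of polymerase epsilon, was at 3.34, 3.46, 4.00 and 4.77 FPKM in WT and 4.22, 4.61, 3.82 and 3.36 FPKM in KO, a log2 difference of 0.03 with a 95% interval from -0.29 to 0.36. The 3 members with a negative difference were Pold1, Rfc1 and Rfc2. Beside these values, all 11 erythroid markers had a positive difference, with a median of 1.00, and 7 were higher at an unadjusted p of 0.05 (smallest limma adjusted p = 0.0514). Their sums were at 1528 to 5712 FPKM in KO MPPs and 369 to 3174 FPKM in WT MPPs, an overlap, and none was at 0. Summed mast cell and basophil markers were at 22.7 to 73.6 FPKM in KO MPPs and 7.31 to 18.1 FPKM in WT MPPs (8 of 8 genes detected, with Prss34, Ms4a2, Fcer1a, Gzmb, Cma1 and Tpsb2 at 0 in at least 1 library). Summed HSC markers (12 of 12 detected) were at 307 to 364 FPKM in KO and 397 to 478 FPKM in WT, and B cell markers (8 of 8) at 24.4 to 30.0 and 30.4 to 39.8 FPKM. Their part in the differences was not tested.

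In total HSCs the same genes leaned the other way, by smaller amounts. Of 42 members 35 had a negative difference, with a median of -0.15, against 50.2% of all genes. 0 of 42 passed limma's adjusted test, where 0.124% of 13717 genes did, 9 were lower at an unadjusted p of 0.05 (5.21% of all genes) and 0 higher (4.87%), and limma-voom called 0 (0.197% of all genes) and counted 9 lower at that unadjusted p (5.65%). KO libraries lay wholly below WT libraries for Mcm6, Mcm7, Gins1, Cdc6 and Rfc2, 5 members, against 3.39% of all genes. Without WT replicate 1, which had the highest mean level of its group, the median was -0.09 and 3 members were lower at an unadjusted p of 0.05, against 5.51% of all genes. The count was also 3 without KO replicate 2 (4.12%) and was 5 without KO replicate 4 (4.23%). A fit over the whole cohort counted 4 (3.76%).

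The helicase and GINS genes held the lowest medians in HSCs, -0.22 and -0.23. Gins1 (chr2:150905400-150931280, plus strand) had the smallest unadjusted p, at 26.4, 20.4, 23.9 and 21.2 FPKM in WT and 19.2, 16.9, 13.6 and 18.2 FPKM in KO (log2 difference -0.42, SE 0.12, limma adjusted p = 0.259). Its groups were apart by a narrow margin. Mcm7, a ring subunit whose exons overlap Ap4m1 and Cops6, was at 55.6, 53.4, 50.8 and 52.9 FPKM in WT and 42.4, 43.4, 48.5 and 36.4 FPKM in KO (log2 difference -0.32, SE 0.10, limma adjusted p = 0.284). Rfc2, a clamp loader subunit, was at 44.1, 43, 41.3 and 46.9 FPKM in WT and 37.6, 37.2, 37.7 and 31.8 FPKM in KO (log2 difference -0.28, SE 0.09, limma adjusted p = 0.321). For both genes every KO library lay below every WT library.

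Mcm5 and Mcm6, the genes whose overlapping E2F forms are printed above, were also among the 9. Mcm6 was at 97.2, 79.1, 80.6 and 80.4 FPKM in WT HSCs and 70.7, 66.9, 79.0 and 60.1 FPKM in KO HSCs, with WT replicate 1 well above its group and KO replicate 3 only just below the lowest WT library. Mcm5 was at 77.6, 61.7, 67.1 and 64.2 FPKM in WT and 59.5, 48.4, 62.5 and 51.9 FPKM in KO, and 1 KO library overlapped WT. Cdc6 was at 9.20, 8.77, 8.66 and 10.4 FPKM in WT and 6.83, 7.18, 8.33 and 8.07 FPKM in KO, apart but close. Rrm2 and Slbp, the leading genes in MPPs, did not separate in HSCs: Rrm2 was at 50.7, 39.2, 53.9 and 45.6 FPKM in WT and 51.7, 48.4, 54.8 and 43.3 FPKM in KO. Slbp was at 51.8, 43.6, 46.9 and 44.1 FPKM in WT and 49.0, 49.2, 51.4 and 42.8 FPKM in KO. The 7 members with a positive difference were Dut, Orc1, Orc6, Pole, Pole2, Rrm2 and Slbp. Fen1, the flap endonuclease that trims Okazaki fragments, was read at only 0.188 to 0.766 FPKM in HSCs and 0.151 to 1.19 FPKM in MPPs of this cohort, from 13 to 45 and 7 to 100 reads, and was not tested there. In the H2B-GFP cohort Fen1 was at 24.5 to 56.1 FPKM. The first cohort's tables name genes by Ensembl identifiers and the others by NCBI identifiers, and whether the gene models or the counting differed is not given in the sources used here. Fen1 shares exon bases with Tmem258 and Gm10143 on the opposite strand, so its low value in the first cohort is not read as low expression.

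Some marker sums moved with the KO label in HSCs. Macrophage markers (9 of 9 detected, Adgre1 at 0 in at least 1 library) were at 34.2 to 38.1 FPKM in KO and 19.7 to 25 FPKM in WT. Megakaryocyte markers (8 of 8) were at 1292 to 1766 FPKM in KO and 980 to 1198 FPKM in WT, and mast cell and basophil markers (7 of 8) at 13.2 to 19.1 and 10.5 to 11.9 FPKM. Granulocyte-monocyte progenitor markers had 5 of 5 tested genes positive, with a median of 1.13, and overlapping sums. Their part in the differences was not tested.

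The KO effect in MPPs minus that in HSCs was positive for 40 of 42 members, all but Rfc1 and Pold1, with a median of 0.46 log2 units, against 50.5% of all genes. 0 of 42 members passed limma's adjusted test of this difference, where 0.0076% of 13166 genes did, and 21 were higher at an unadjusted p of 0.05, against 4.44% of all genes. Tk1 had a difference of effects of 0.83 (SE 0.19), Slbp of 0.60, Rrm2 of 0.90 and Gins1 of 0.93, with limma's adjusted p between 0.253 and 0.303. Leaving out WT MPP replicate 3 gave 2 called members, Rrm2 and Tk1, against 0.137% of all genes. Without KO MPP replicate 3 or WT HSC replicate 3, 13 members were higher at an unadjusted p of 0.05, against 3.6% and 3.62% of all genes, 14 without WT MPP replicate 2 or 4 (3.92% and 3.85%), and 31 at most, without WT MPP replicate 1 (5.31%). The median stayed between 0.37 and 0.57 whichever library was left out. 32 of 42 members were negative in HSCs and positive in MPPs, against 19.5% of 13163 genes. Members of every role had opposite signs in the HSCs and MPPs, and none passed the adjusted test of the difference.

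**Figure D3:**
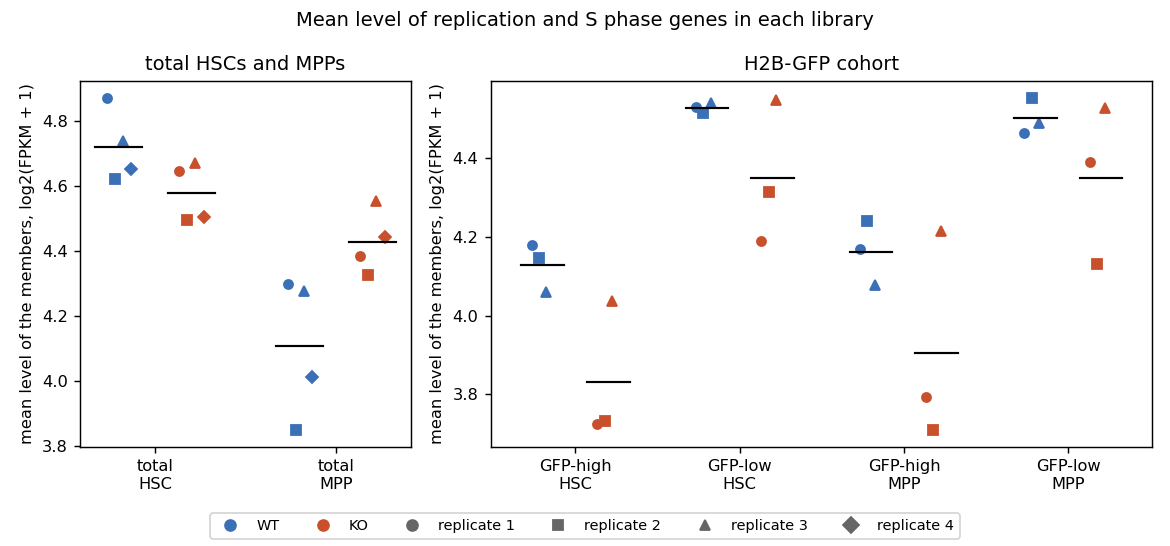
Mean log2(FPKM + 1) of the members that passed the filter in every library, by population and genotype, with the replicate number as marker shape and a black line at each group mean. KO libraries sit higher than all WT libraries in total MPPs, and in the H2B-GFP populations KO replicate 3 sits close to the WT libraries while KO replicates 1 and 2 sit lower.

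The mean level of the members shows which libraries carry these leanings. In total MPPs the mean log2(FPKM + 1) was 4.3, 3.85, 4.28 and 4.01 in WT and 4.39, 4.33, 4.55 and 4.44 in KO, with all KO libraries above all WT libraries. In total HSCs it was 4.87, 4.62, 4.74 and 4.65 in WT and 4.65, 4.50, 4.67 and 4.50 in KO, where the groups overlapped. In GFP-high HSCs it was 4.18, 4.15 and 4.06 in WT and 3.72, 3.73 and 4.04 in KO. The low KO replicates 1 and 2 and the near-WT replicate 3 recurred in GFP-high MPPs, at 3.79, 3.71 and 4.21 against 4.17, 4.24 and 4.08 in WT. In GFP-low HSCs KO was at 4.19, 4.31 and 4.55 and WT at 4.53, 4.51 and 4.54. In GFP-low MPPs KO was at 4.39, 4.13 and 4.53 and WT at 4.46, 4.55 and 4.49. KO replicate 3 was the highest KO library in all 4 populations. Equal replicate numbers deviated together across several of these populations, so the 4 comparisons may share animals and are not 4 independent looks.

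In GFP-high HSCs, the stem cells that had divided least, replication genes leaned lower in KO. Of 43 members 41 had a negative difference, with a median of -0.29, against 50.4% of all genes. 0 of 43 passed limma's adjusted test, where 0.0276% of 10850 genes did, 19 were lower at an unadjusted p of 0.05 (4.72% of all genes), and limma-voom called 0 (0.0184%) and counted 20 lower (5.21%). For 19 members all KO libraries lay below all WT libraries, against 7.47% of all genes. Without KO replicate 3 the median was -0.42, 32 members were lower at an unadjusted p of 0.05 (5.81% of all genes), 36 were apart (14.4%), and none was called. The number at an unadjusted p of 0.05 was 10 without KO replicate 1 or WT replicate 1, 11 without KO replicate 2 and 12 without WT replicate 2, against 3.27% to 4.36% of all genes lower in these fits. Summed mature neutrophil markers (9 of 9 detected) were at 5441 to 7319 FPKM in WT and 4285 to 5435 FPKM in KO, a sum carried by S100a8 (means of 2849 and 2121 FPKM) and S100a9 (2133 and 1389 FPKM), and 4 of the 9 markers had a positive difference. WT libraries held fewer megakaryocyte markers, 111 to 122 against 139 to 205 FPKM (7 of 8), whose part in the differences was not tested.

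Dscc1 (chr15:55076099-55090491, minus strand), a subunit of the alternative clamp loader used in sister chromatid cohesion, had the smallest unadjusted p and the largest difference of the members, at 2.98, 3.62 and 3.15 FPKM in WT and 1.84, 1.44 and 1.82 FPKM in KO (log2 difference -0.66, SE 0.14, n = 3 and 3, limma adjusted p = 0.2). All KO libraries, replicate 3 included, lay below all WT libraries. Orc6 was at 22.4, 23.7 and 21.6 FPKM in WT and 16.5, 14.6 and 16.4 FPKM in KO (log2 difference -0.49, SE 0.11, limma adjusted p = 0.2). Rpa1, the large subunit of the single-strand binding protein, was at 20.7, 19.8 and 18.6 FPKM in WT and 14.1, 14.0 and 14.8 FPKM in KO (log2 difference -0.43, SE 0.10, limma adjusted p = 0.226). In Orc6 and Rpa1 too replicate 3 was no exception, unlike in the mean of all members.

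Nucleotide supply and the flap, ligation and RPA group shared a median of -0.42 in GFP-high HSCs. Rrm2 was at 32.3, 32.3 and 27.9 FPKM in WT and 22.6, 16.6 and 26.2 FPKM in KO, and Tyms at 15.0, 16.4 and 15.5 FPKM in WT and 10.9, 10.2 and 13.4 FPKM in KO. Both were apart, with replicate 3 the nearest KO library. Fen1 was at 43.2, 40.4 and 35.2 FPKM in WT and 30.3, 24.5 and 34.8 FPKM in KO. Clspn, at 2.27, 1.51 and 1.78 FPKM in WT and 0.982, 0.925 and 1.25 FPKM in KO, and Pola1, at 9.62, 9.43 and 8.05 and 5.75, 6.87 and 7.37 FPKM, were apart as well. Mcm5 was at 50.5, 40.5 and 47.9 FPKM in WT and 29.0, 32.3 and 43 FPKM in KO, and replicate 3 overlapped WT. Pcna was at 79.1, 68.8 and 68.0 FPKM in WT and 65.5, 52.4 and 65.1 FPKM in KO, apart by a small margin. Cdt1, Cdc6, Gins2, Mcm10 and Slbp overlapped between the genotypes. Pole showed almost no difference, at 6.62, 6.07 and 5.79 FPKM in WT and 6.42, 6.02 and 5.74 FPKM in KO (log2 difference -0.02, 95% interval -0.28 to 0.24).

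**Figure D4:**
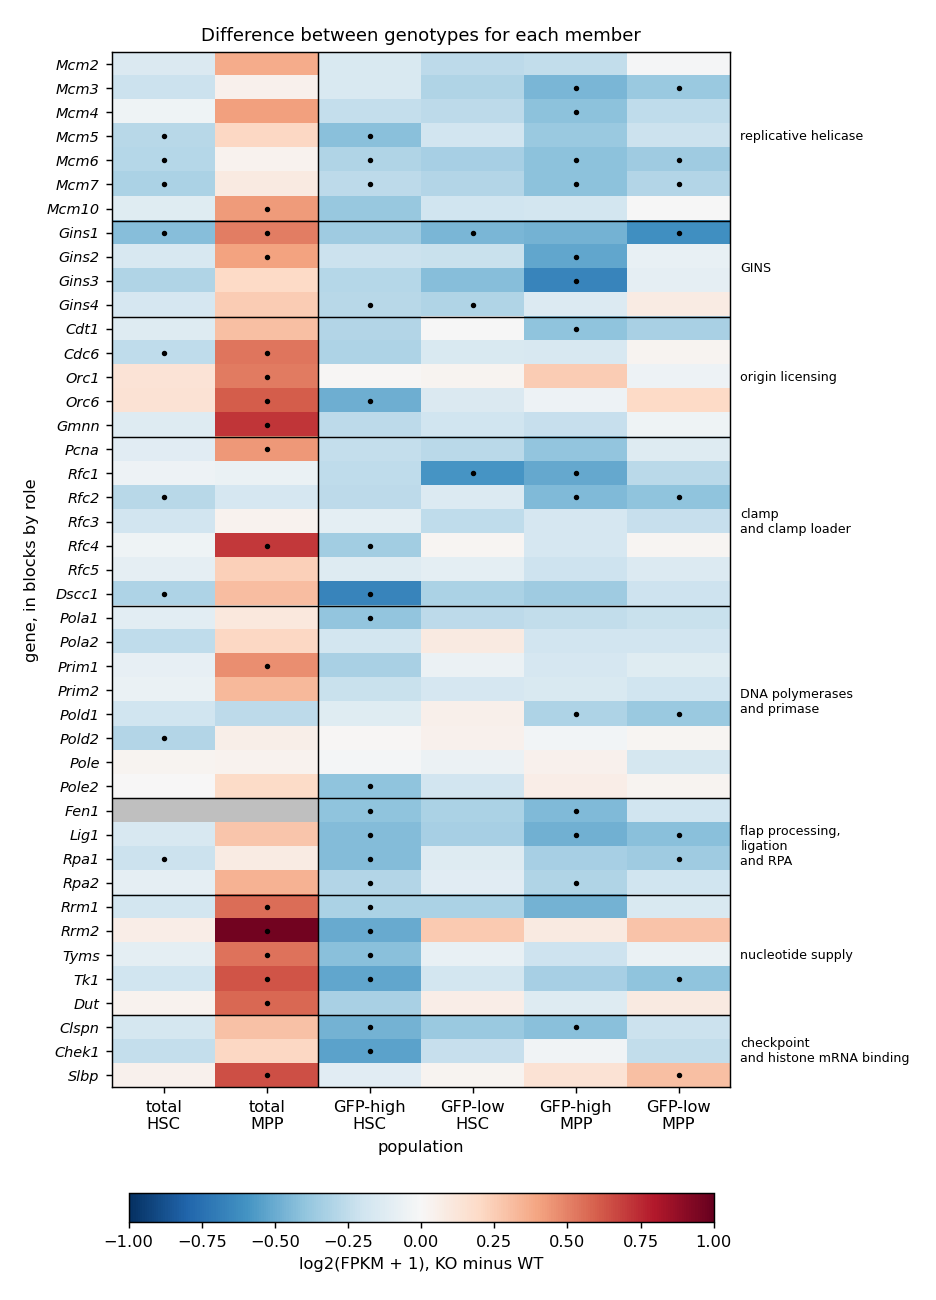
Log2 difference of KO minus WT on the log2(FPKM + 1) scale for the 43 members (rows, in blocks by role) in the 6 populations (columns), with dots at an unadjusted p under 0.05 and grey where Fen1 was below the filter. The MPP column is mostly positive and the other 5 mostly negative, and Rrm2 and Slbp are among the members whose sign differs between the H2B-GFP populations.

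In GFP-low HSCs most members also leaned lower. Of 43 members 35 had a negative difference, with a median of -0.19, against 50.8% of all genes. 0 of 43 members and 0% of 10705 genes passed limma's adjusted test. 3 members, Gins1, Gins4 and Rfc1, were lower at an unadjusted p of 0.05, against 3.9% of all genes, and limma-voom called 0 (0% of all genes) and counted 7 lower (4.23%). A fit over the whole H2B-GFP cohort called 1, Rfc1, against 0.502% of all genes, and counted 8 lower at an unadjusted p of 0.05 (6.32%). Rfc1, the large subunit of the clamp loader, was at 8.56, 8.52 and 8.84 FPKM in WT and 5.67, 4.77 and 5.84 FPKM in KO (log2 difference -0.59, SE 0.14, limma adjusted p = 0.314), wholly apart. Gins1 was at 15.9, 16.4 and 12.8 FPKM in WT and 9.86, 9.08 and 13.3 FPKM in KO, where replicate 3 overlapped. KO lay wholly below WT in 9 members, against 6.42% of all genes. Without KO replicate 3 the median was -0.27, 13 members were lower at an unadjusted p of 0.05 (5.88% of all genes) and 24 were apart (14.3%). Without KO replicate 1 the median was -0.12, and the number at an unadjusted p of 0.05 was 1 without WT replicate 1 (2.17% of all genes lower) and 2 without WT replicate 2 (3.03%) or 3 (2.03%).

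Several members of GFP-low HSCs were higher in some KO libraries. Rrm2 was at 42.4, 33.0 and 38.1 FPKM in WT and 48.3, 32.3 and 59.1 FPKM in KO, spreading to both sides of WT. Cdc6 was at 8.49, 6.85 and 6.77 FPKM in WT and 3.41, 8.28 and 9.36 FPKM in KO, and Mcm5 at 59.5, 63.4 and 65.4 FPKM in WT and 37.9, 58.4 and 74.6 FPKM in KO. Gins4, another GINS subunit, was at 56.6, 50.9 and 51.0 FPKM in WT and 39.4, 43.4 and 45.4 FPKM in KO, wholly apart. In Cdc6 and Mcm5, KO replicate 1 was the lowest and replicate 3 the highest of the 6 libraries. Pcna, at 102, 93.9 and 101 FPKM in WT and 91.2, 73.1 and 81.9 FPKM in KO, was apart. Erythroid markers (10 of 11 detected) were at 1111 to 1794 FPKM in KO and 745 to 792 FPKM in WT, with 10 of 10 tested positive and a median of 1.17. Without KO replicate 3, 9 of 10 were positive, with a median of 0.78. Megakaryocyte markers (8 of 8) were at 432 to 500 FPKM in KO and 184 to 287 FPKM in WT. The part of these markers was not tested.

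In GFP-high MPPs, 38 of 43 members had a negative difference, with a median of -0.25, against 49% of all genes. 0 of 43 members and 0% of 10789 genes passed limma's adjusted test, 14 members were lower at an unadjusted p of 0.05 (3.48% of all genes), and limma-voom called 0 (0%) and counted 16 lower (3.7%). KO lay wholly below WT for 16 members, against 6.59% of all genes. Without KO replicate 3, whose neutrophil markers are given above, the median was -0.44, 30 members were lower at an unadjusted p of 0.05 (5.32%) and 36 were apart (13.8%). Without KO replicate 2 the median was -0.16, and the number at an unadjusted p of 0.05 was 8 without WT replicate 1 (2.19% of all genes lower) and 9 without WT replicate 2 (2.45%) or KO replicate 1 (4.36%). Gins2 had the smallest unadjusted p, at 6.51, 6.59 and 7.36 FPKM in WT and 4.73, 4.11 and 4.48 FPKM in KO (log2 difference -0.52, limma adjusted p = 0.492), with replicate 3 inside the KO range. Mcm3, a ring subunit, was at 69.0, 73.1 and 66.3 FPKM in WT and 49.3, 45.2 and 57.0 FPKM in KO (log2 difference -0.46, limma adjusted p = 0.52). Rfc2 was at 35.6, 39.9 and 41.6 FPKM in WT and 28.3, 29.3 and 27.5 FPKM in KO (log2 difference -0.44, limma adjusted p = 0.52). All 3 genes were apart.

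The spread within KO was largest for Rrm2 in this population, at 18.6, 20.0 and 60.3 FPKM in replicates 1, 2 and 3 against 30.9, 28.1 and 21.6 FPKM in WT. KO replicates 1 and 2 lay below all WT libraries and replicate 3 far above them. Cdc6 was at 5.09, 7.39 and 5.17 FPKM in WT and 2.93, 4.80 and 8.88 FPKM in KO, in the same order of KO libraries. Cdt1 was apart, at 19.9, 20.9 and 16.8 FPKM in WT and 13.8, 13.7 and 15.3 FPKM in KO, as was Fen1, at 45.6, 42.2 and 37.7 FPKM in WT and 27.5, 27.9 and 36.9 FPKM in KO. Slbp was at 17.0, 19.0 and 15.3 FPKM in WT and 17.5, 14.3 and 27.2 FPKM in KO. Granulocyte-monocyte progenitor markers (8 of 8 detected) were at 597 to 1276 FPKM in KO and 329 to 543 FPKM in WT, with 7 of 7 tested positive and a median of 1.23. Without KO replicate 3, 7 of 7 were positive, with a median of 0.76. Megakaryocyte markers (7 of 8) were at 73.4 to 129 FPKM in KO and 63.2 to 70.5 FPKM in WT. Stroma and endothelium markers (8 of 8) were at 18.2 to 21.1 and 13.5 to 17.6 FPKM. The part of these markers was not tested.

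In GFP-low MPPs, 34 of 43 members had a negative difference, with a median of -0.19, against 49.6% of all genes. 0 of 43 passed limma's adjusted test, where 0.32% of 10621 genes did. At an unadjusted p of 0.05, 9 members were lower (6.16% of all genes) and 1, Slbp, higher (6.12%), and limma-voom called 0 (0.33%) and counted 9 lower (6.89%) and 2 higher (6.37%). KO lay wholly below WT for 12 members (9.33% of all genes) and wholly above for Slbp (9.73%). Without KO replicate 3 the median was -0.26, with 16 members lower at an unadjusted p of 0.05 (5.87%) and 24 apart (14.5%). Without KO replicate 2, the KO library with the lowest mean level, the median was -0.06. Without WT replicate 2, 5 members were lower at an unadjusted p of 0.05 (3.97% of all genes) and 1 higher (4.85%).

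The members with the smallest unadjusted p in GFP-low MPPs were clamp loader and helicase subunits. Rfc2 was at 44.0, 48.0 and 45.7 FPKM in WT and 37.1, 32.9 and 33.6 FPKM in KO (log2 difference -0.40, SE 0.10, limma adjusted p = 0.179). Mcm3 was at 85.1, 88.2 and 92.1 FPKM in WT and 73.9, 63.8 and 67.5 FPKM in KO (log2 difference -0.37, limma adjusted p = 0.21), and Mcm6 at 91.3, 95.9 and 96.4 FPKM in WT and 76.6, 66.8 and 78.3 FPKM in KO (log2 difference -0.35, limma adjusted p = 0.238). In all 3 the KO libraries lay below WT with replicate 3 among them. Gins1 had a larger difference with more spread, at 18.0, 15.0 and 14.3 FPKM in WT and 12.7, 6.43 and 11.6 FPKM in KO (log2 difference -0.62, SE 0.22), where KO replicate 2 was the lowest library. Slbp went the other way, at 20.0, 22.7 and 22.1 FPKM in WT and 24.2, 26.0 and 30.6 FPKM in KO (log2 difference 0.30, limma adjusted p = 0.366). Rrm2 also leaned up, at 41.6, 47.7 and 36.8 FPKM in WT and 53.5, 46.3 and 53.6 FPKM in KO, with 1 KO library inside the WT range. Erythroid markers (10 of 11 detected) were at 1674 to 2141 FPKM in KO and 736 to 1143 FPKM in WT. With all libraries 8 of 10 tested were positive, with a median of 0.82, and 3 were called higher. Without KO replicate 3, 10 of 10 were positive, with a median of 0.84, and 0 were called, against 0.00954% of all genes. HSC markers (12 of 12) were at 384 to 475 FPKM in KO and 506 to 543 FPKM in WT. Of the 11 tested, 5 had a positive difference and 6 a negative one, with a median of -0.06. Without KO replicate 3, 8 were positive and 3 negative, with a median of 0.10. The part of these markers was not tested.

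No difference of the KO effect between GFP classes passed the adjusted test. GFP-low minus GFP-high gave a median of 0.11 in HSCs, with 30 of 43 members positive, and 0.12 in MPPs, with 33 positive, against 49.2% and 48.5% of all genes. 0 members passed limma's adjusted test, as did 0% of all genes. At an unadjusted p of 0.05, Rrm2 (0.76) and Rfc4 (0.37) were higher in HSCs and Gins2 (0.45) in MPPs, against 1.74% and 1.32% of all genes. These counts ran from 0 to 6 in HSCs and 0 to 8 in MPPs over the libraries left out, against 1.41% to 3.4% and 0.931% to 4.07% of all genes. The medians lay within 0.00 to 0.20 and 0.01 to 0.23 over the libraries left out in turn. These fits did not pair libraries of equal replicate number, though equal numbers deviated together between the GFP classes. With that pairing 5 members were higher at an unadjusted p of 0.05 in HSCs and 2 in MPPs, against 2.86% and 3.13% of all genes. In both, 0 were lower (2.51% and 3.35%) and 0 passed the adjusted test, as did 0% of all genes. MPP minus HSC gave 0.04 in GFP-high and 0.01 in GFP-low cells, with 22 of 43 positive in each. None was higher at an unadjusted p of 0.05, against 1.29% and 2.39% of all genes, and these medians took either sign as libraries were left out. With the pairing 2 members were higher and 1 lower in GFP-high cells, against 2.57% and 2.91% of all genes. In GFP-low cells 1 was higher and 1 lower, against 4.52% and 3.86%.

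Across the 4 H2B-GFP populations 30 of 43 members were negative in all, and 1635 of 10166 genes (16.1%) were. With KO replicate 3 left out it was 35 of 43 members and 1640 of 10002 genes (16.4%). The 13 exceptions were Cdc6, Dut, Gins4, Orc1, Orc6, Pola2, Pold1, Pold2, Pole, Pole2, Rfc4, Rrm2 and Slbp. No member was positive in all 4. By role, the helicase had medians of -0.26, -0.26, -0.41 and -0.25 in GFP-high HSCs, GFP-low HSCs, GFP-high MPPs and GFP-low MPPs. The flap, ligation and RPA group had -0.42, -0.22, -0.39 and -0.28 in the same order, and the clamp group -0.25, -0.25, -0.35 and -0.21. Nucleotide supply had -0.42 in GFP-high HSCs but -0.08, -0.21 and -0.07 in the others, and licensing -0.29, -0.15, -0.16 and -0.04. The helicase medians without KO replicate 3 were -0.36, -0.43, -0.51 and -0.30, those of the flap, ligation and RPA group -0.49, -0.32, -0.51 and -0.37, and those of the clamp group -0.29, -0.24, -0.42 and -0.27. Nucleotide supply then had -0.53, -0.15, -0.44 and -0.24, and licensing -0.44, -0.27, -0.45 and -0.16, so all these medians were negative in all 4 populations with and without that replicate. Contrasts between roles were not tested.

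Neighbouring parts of the cell cycle were read from lists of other replication genes (49 genes, none of them members), mitosis genes (30) and CDK inhibitors with quiescence genes (15). Other replication genes had medians of -0.09 in HSCs, 0.24 in MPPs and -0.21, -0.13, -0.17 and -0.02 in the GFP populations in the order above, with 0 called in either direction. In MPPs, 43 of 47 tested were positive and 10 were higher at an unadjusted p of 0.05, where 8.77% of all genes were. Mitosis genes stood further out in MPPs, with 28 of 28 positive, a median of 0.73, 20 higher at an unadjusted p of 0.05 (8.77% of all genes) and 0 called. Ccnb1, the cyclin of mitotic entry, went from 10.2 ± 3.88 to 27.3 ± 6.31 FPKM (SD, n = 4 each, log2 difference 1.37, limma adjusted p = 0.0514). In total HSCs mitosis genes leaned up while the members leaned down, with 25 of 30 positive and a median of 0.14. In GFP-high HSCs 30 of 30 were negative, with a median of -0.40 and 12 lower at an unadjusted p of 0.05, where 4.72% of all genes were. In GFP-low HSCs 26 of 30 were negative, with a median of -0.15, and in GFP-high MPPs 24 of 29, with a median of -0.22. In GFP-low MPPs 17 of 30 were positive, with a median of 0.05. Without KO replicate 3 the mitosis medians in the GFP populations were -0.53, -0.40, -0.52 and 0.00, and those of other replication genes -0.31, -0.16, -0.35 and -0.07. In GFP-high HSCs with all libraries, Top2a, the topoisomerase that untangles chromosomes, was at 10.8 ± 1.91 FPKM in WT and 6.11 ± 0.934 FPKM in KO (SD, n = 3 each, log2 difference -0.72, limma adjusted p = 0.2).

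Of the CDK inhibitor and quiescence list 1 gene passed a test. Btg2, an antiproliferative gene, rose in total HSCs from 6.78 ± 0.839 to 14.1 ± 3.12 FPKM (SD, n = 4 each, log2 difference 0.95, limma adjusted p = 0.039). In that population 0.124% of 13717 genes passed the adjusted test. There 13 of 14 tested genes of the list were positive, with a median of 0.37. At an unadjusted p of 0.05, 8 were higher and 0 lower, against 4.87% and 5.21% of all genes. Cdkn1a, the p21 inhibitor, was at 3.50 ± 1.24 FPKM in WT and 9.20 ± 4.36 FPKM in KO in total MPPs (limma adjusted p = 0.136) and at 1.68 ± 0.778 and 3.89 ± 0.416 FPKM in GFP-low MPPs (limma adjusted p = 0.144). The list had medians of 0.11, 0.20, 0.13 and 0.09 in the GFP populations and 0.23 in total MPPs, and 0.14, 0.17, 0.14 and 0.07 in the GFP populations without KO replicate 3. Its median was positive in all 6 populations. Yet 5 of 12 tested genes were negative in GFP-high HSCs and 4 of 13 in GFP-low MPPs, against 50.4% and 49.6% of all genes.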

How the data were processed

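RNA from sorted cells was polyA-selected by SMART-Seq2 and made into Nextera XT libraries, per the labels' protocols. The authors deposited 6 tables of FPKM values, 1 for each population, with 40 libraries in 12 groups. The submitters' processing notes name STAR, DESeq2, HOMER and mm10 without roles or versions, and strand use is not given in the sources used here. Whole reads could be recovered from the FPKM steps for at least 99.9% of rows in every library (tolerance 0.01 reads), which gave the depths and the reads for limma-voom. Each table was scaled by the authors on its own, so no test crosses levels between tables.

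KO and WT libraries were compared within each table with limma (version 3.58.1, R 4.3.3). Values entered as log2(FPKM + 1), with a trended prior, 2-sided tests and Benjamini-Hochberg adjustment over all genes past the filter. A fold on this scale understates the change of low genes. The 5 differences between KO effects were fitted jointly on 2 tables, without pairing libraries of equal replicate number. The scripts were checked on simulated data. Replicates are samples of 1 group, and where they share animals the p-values measure technical spread as well. The members and lists were chosen with earlier results of these data known. Values per library are given for members past the test, the 3 with the smallest unadjusted p in each comparison and a fixed set of members from each role, and other members are given by counts or where a count names them. Equal replicate numbers in the WT and KO of a table did not deviate together as a rule (correlations from -0.116 to 0.285). Numbers did deviate together between GFP-low and GFP-high cells of each type and between GFP-high MPPs and HSCs (0.136 to 0.398). Every library there correlated best with its own number. Correlations were less even between GFP-low MPPs and HSCs (-0.0429 to 0.296) and between total MPPs and HSCs (-0.217 to 0.341). Promoter sequences are RefSeq's for GRCm38.p6.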

Additional observations from a re-analysis of the deposited data

Results flagged for a closer look

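Of 100 groups of 4 libraries checked in the first cohort, 5 held a library whose gap to the others took more than 0.829 of the group's range, and chance alone gives about 1 in 20. Mcm6 in WT HSCs was highest in replicate 1, at 97.2 FPKM, with the next library at 80.6 FPKM. Dscc1 in WT HSCs was lowest in replicate 2, at 5.61 FPKM, below 7.43 FPKM in the next. Rpa1 in WT HSCs was lowest in the same library, at 19.7 FPKM, below 21.5 FPKM. Rfc2 in KO HSCs was lowest in replicate 4, at 31.8 FPKM, below 37.2 FPKM. Gins2 in KO MPPs was lowest in replicate 1, at 5.88 FPKM, below 7.02 FPKM.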

How the results depend on the processing

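In total MPPs the number of members past the adjusted threshold moved from 0 to 8 with all populations of the first cohort in 1 fit (Gmnn, Orc6, Rfc4, Rrm1, Rrm2, Slbp, Tk1 and Tyms), to 4 with a replicate block (Gmnn, Orc6, Rrm2 and Slbp) and to 3 with limma-voom, and lay from 0 to 3 over the libraries left out in turn (3 without KO replicate 4, 1 without WT replicate 3). All genes called there numbered 560, 137 and 114 in these fits, 205 and 64 without those libraries, and 15 in the limma fit reported. In GFP-low HSCs a joint fit of the cohort called 1 member, Rfc1, and 51 of 10166 genes, against 0 in the fit reported. For the difference of MPPs and HSCs the count lay from 0 to 2 over the libraries left out. The replicate block changed no other count of members past the adjusted threshold. At the unadjusted p threshold it moved the count of lower members from 9 to 7 in HSCs and from 14 to 11 in GFP-high MPPs. That count went from 19 to 18 in GFP-high HSCs, 3 to 4 in GFP-low HSCs and 9 to 8 in GFP-low MPPs. The count of higher members went from 21 to 25 in the difference of MPPs and HSCs. The cause of these moves was not tested. Of the other settings (a pseudocount of 0.1, no filter, 1 common total with and without ribosomal RNA rows, the last chosen after seeing the data) none called a member where the reported fit called none. Rescaling to 1 total gave MPPs a median of 0.25, or 0.23 without ribosomal RNA rows, with 34 and 32 positive members, and turned no median of a KO and WT comparison. It moved the median of all genes by -0.11 in the difference of GFP-low and GFP-high HSCs. Rescaling also moved the number of members lower at the unadjusted p threshold in the H2B-GFP cohort. This number went from 19 to 8 in GFP-high HSCs (2.48% of all genes lower) and from 14 to 7 in GFP-high MPPs (1.88%). It went from 3 to 10 in GFP-low HSCs (4.82%) and from 9 to 7 in GFP-low MPPs (4.36%). Without ribosomal RNA rows these numbers were 18, 18, 13 and 11, in the same order. The medians over libraries left out lay from -0.19 to -0.09 in HSCs, 0.20 to 0.43 in MPPs, -0.42 to -0.24 in GFP-high HSCs, -0.27 to -0.12 in GFP-low HSCs, -0.44 to -0.16 in GFP-high MPPs and -0.26 to -0.06 in GFP-low MPPs. Groups held 3 or 4 libraries, with at most 9.47 M reads a library in the H2B-GFP cohort.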
